A study of Mus musculus with 2 samples.

Results

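The genes described here are 33 members of sterol and fatty acid synthesis, measured by single-cell RNA sequencing of the mouse uterus on gestational day 3.5, in the hours before implantation. They were taken by symbol from a fixed list, and all 33 were found among the 32285 features of the deposited tables. A single uterus sample of a female mouse per genotype was compared, with 1 library each. The control carried floxed alleles of Mig-6 (gene Errfi1, a feedback inhibitor of the EGF receptor) without Cre, genotype Mig-6f/f. The other, labelled knockout, carried the same floxed alleles with Cre at the progesterone receptor gene, genotype Pgrcre/+Mig-6f/f, so Cre is made where Pgr is expressed. Ages are not stated. Both carry the floxed alleles, so any effect of Cre at Pgr cannot be told apart from one of recombining those alleles. With 1 sample and 1 library per genotype, neither can be told apart from a difference between samples or libraries.

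Cells make cholesterol from acetyl-CoA through mevalonate, farnesyl pyrophosphate, squalene and lanosterol, and make fatty acids from cytosolic acetyl-CoA through malonyl-CoA. The transcription factors SREBP-1 and SREBP-2 (genes Srebf1 and Srebf2) drive both routes. They are carried to the Golgi by Scap when sterols are low and held back in the endoplasmic reticulum by Insig1 when sterols are high. The products serve as membrane lipids, and in the uterus phospholipid fatty acids are also the source of prostaglandins.

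Barcodes were sorted by the summed level of a few marker genes per 10000 unique molecular identifiers (UMIs, each 1 captured RNA molecule). Epithelial barcodes had Epcam, Krt8, Krt18 and Cldn7 at 10 or more, stromal barcodes had Dcn, Col1a2 and Col3a1 at 10 or more, and lymphoid barcodes had Gzma, Nkg7, Il2rb and Xcl1 at 15 or more. This gave 722 epithelial, 3221 stromal, 90 lymphoid and 244 other barcodes in the control. The library labelled knockout gave 1419, 1049, 124 and 280. All 7 epithelial, 6 stromal and 7 lymphoid markers listed had UMIs in their classes. The lists include the sorting genes, so this does not check the classes. All 7 epithelial markers also had UMIs in stromal barcodes of both libraries, and all 6 stromal markers in epithelial barcodes. Barcodes over more than 1 limit, 26 in the control and 9 in the other library, were left out. Near a limit (within 20% of it) lay 6 and 16 barcodes for epithelium, 103 and 72 for stroma, and 3 and 18 for lymphoid cells. The libraries held 44871170 and 23317904 UMIs, and they shared 3 barcode sequences. Median depth per stromal barcode was 8889 UMIs in the control and 3637 in the library labelled knockout, and per epithelial barcode 11752 and 9531. Errfi1 was 575 (control) and 513 in epithelium and 197 and 733 in stroma, in UMIs per 1000000 UMIs of the class (CPM), so in stroma the target went against the label. Every direction below is that of the library labelled knockout against the control. The labels do not say which exons are floxed, and 3' tags beyond them would check nothing.

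With 1 library per group there was no test. Levels in CPM are UMIs of a gene summed over the barcodes of a class, on that scale. Each UMI stands for 1 molecule, so levels were not divided by gene length. Ranges in parentheses are exact 95% intervals that cover counting error only, and 2-fold was the size at which members were counted.

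In stroma 16 of the 18 sterol enzymes had a ratio above 1, of which 3 were past 2-fold, while the fatty acid genes went both ways. The 8 genes from acetyl-CoA to squalene summed to 345 CPM (control) against 562 CPM (library labelled knockout), a ratio of 1.63 (1.56 to 1.71). The 10 genes from squalene to cholesterol summed to 231 and 323 CPM, a ratio of 1.40 (1.32 to 1.48). The 8 fatty acid genes summed to 584 and 654 CPM, a ratio of 1.12 (1.07 to 1.17). Of these 8, 3 had ratios above 1 and 5 below, at a median log2 ratio of -0.03. The largest part of the sum was Scd2, at 171 and 271 CPM. Of the 33 members, 25 had a ratio above 1 in stroma, against 49.7% of the 11384 genes tested there. At least 2-fold higher were 3 members, against 5.07% of all genes tested, and 0 were at least 2-fold lower, against 6.66%. The median log2 ratio was 0.38 over the members and -0.004 over all genes tested. Counting intervals lay above 1 for 18 members (25.7% of all genes) and below 1 for 2 members (23.6% of all genes).

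The 3 members past 2-fold in stroma sit at different points of the route. Pmvk, which phosphorylates mevalonate phosphate, was 35.0 CPM (control) against 77.2 CPM (library labelled knockout), 2.21-fold higher (1.94 to 2.51). Fdps, which makes farnesyl pyrophosphate, was 94.8 and 197 CPM, 2.07-fold higher (1.91 to 2.24). It overlaps the annotated gene Gm43738 on the same strand, so its counts are uncertain to that extent. Lss, which closes squalene epoxide into lanosterol, was 8.20 and 19.8 CPM, 2.41-fold higher (1.85 to 3.13). The shares of barcodes with a UMI showed the same order once each barcode was thinned to 2000 UMIs. Fdps was then found in 16.0% of control stromal barcodes (14.8 to 17.3) and 28.3% of the others (25.4 to 31.3). Pmvk was found in 6.35% and 13.3%, and Lss in 1.53% and 3.83%. Without thinning, the deeper control had the higher share for Fdps, 41.8% against 39.1%.

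**Figure D1:**
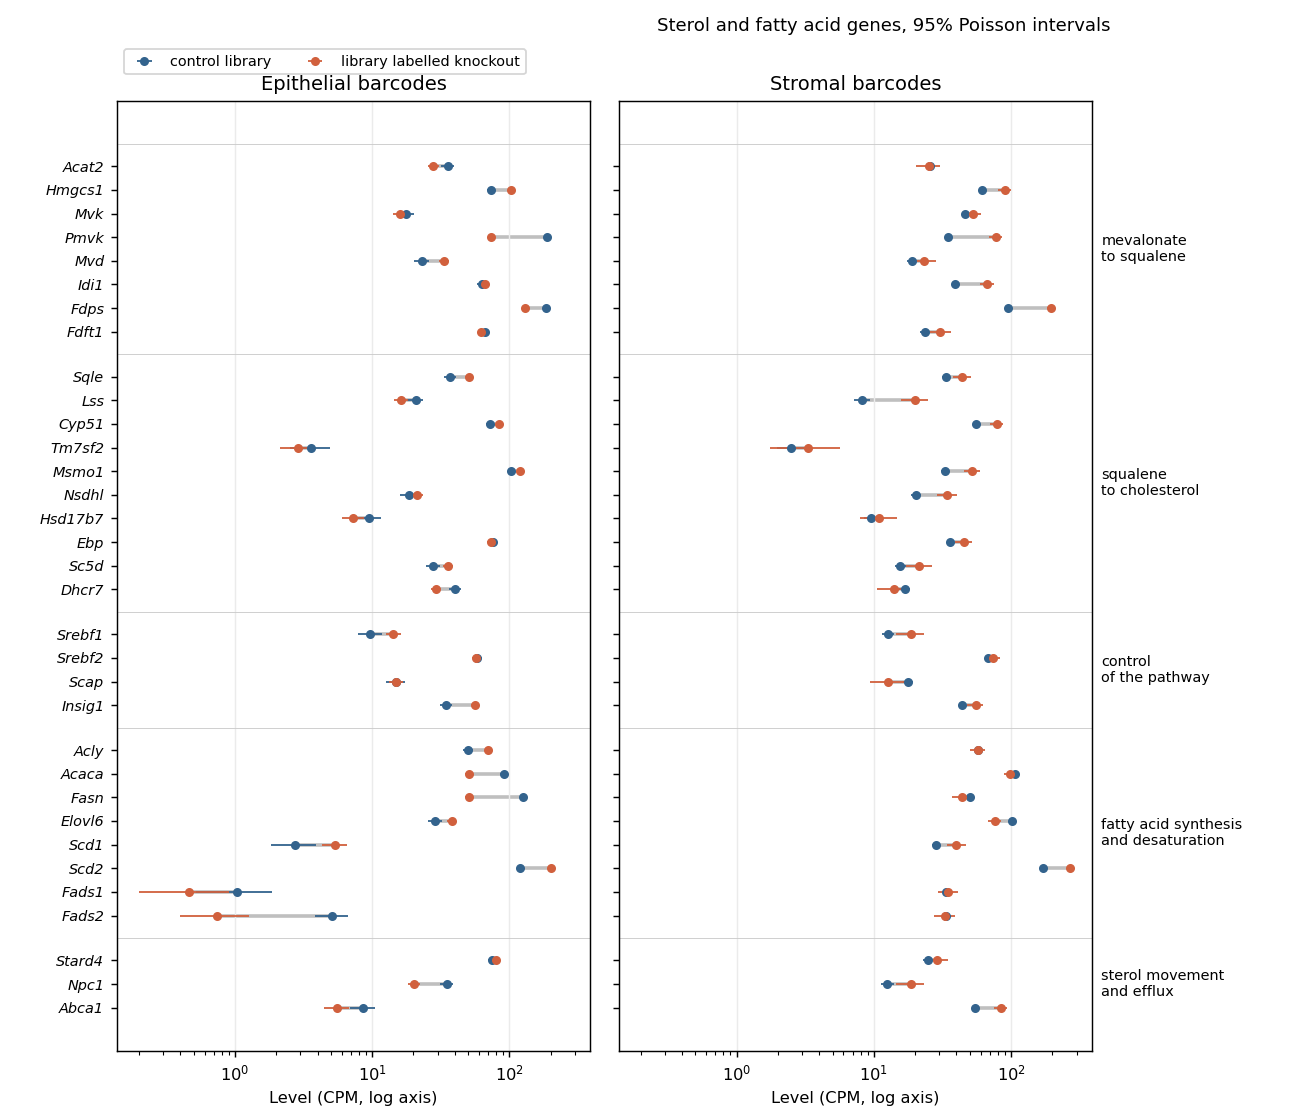
Level of each member in CPM (log axis) in epithelial (left) and stromal (right) barcodes; points are the control library and the library labelled knockout, horizontal bars are exact 95% Poisson intervals for counting error, and grey lines join the pair. In stroma nearly every sterol gene lies further right in the library labelled knockout, with Fdps at 94.8 and 197 CPM, while in epithelium Pmvk, Fasn, Acaca and Fads2 lie further left.

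Most other sterol enzymes were higher in stroma by less than 2-fold. Idi1, which isomerises isopentenyl pyrophosphate, was 39.1 and 66.8 CPM, a ratio of 1.71 (1.49 to 1.96). Nsdhl, a demethylating dehydrogenase, had a ratio of 1.69 (1.39 to 2.03), and Msmo1, which oxidises the sterol methyl groups, 1.58 (1.35 to 1.84). Hmgcs1, which makes HMG-CoA, was 61.6 and 90.1 CPM, a ratio of 1.46 (1.30 to 1.64). Cyp51, the lanosterol demethylase, Sqle, which epoxidises squalene, and Fdft1, which makes squalene, had ratios of 1.40, 1.32 and 1.30, each with an interval above 1. Ebp and Sc5d, late enzymes, had ratios of 1.25 and 1.37. Only Dhcr7, which catalyses the last reduction, and Acat2, the cytosolic thiolase at the start, had ratios below 1 among the 18 enzymes, 0.832 (0.618 to 1.10) and 0.977 (0.784 to 1.21), and both intervals included 1. The intervals of Mvk, Mvd, Tm7sf2 and Hsd17b7 also included 1.

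Among the genes that control the pathway, 3 of 4 had ratios above 1 in stroma. Srebf2 was 67.5 and 74.4 CPM, with a ratio of 1.10 (0.971 to 1.25) that includes 1. Srebf1 was 12.7 and 18.5 CPM, a ratio of 1.46 (1.12 to 1.88), and Insig1 44.2 and 55.1 CPM, a ratio of 1.25 (1.08 to 1.44). Scap was lower, at 17.8 and 12.7 CPM, 1.40-fold (1.05 to 1.91). Among the genes that move sterols, Abca1, the pump that exports cholesterol, was 54.6 and 84 CPM, a ratio of 1.54 (1.36 to 1.73). Npc1, which releases cholesterol from lysosomes, was 12.6 and 18.5 CPM, a ratio of 1.47 (1.13 to 1.90). Stard4, a sterol carrier, had a ratio of 1.16 (0.941 to 1.41).

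The fatty acid genes of stroma went both ways. Scd2, a desaturase and the member with the highest mean level in both compartments, was 171 and 271 CPM, a ratio of 1.58 (1.48 to 1.69). Scd1, its relative, was 28.4 and 39.9 CPM, a ratio of 1.40 (1.18 to 1.67). Elovl6, which lengthens palmitate, was lower at 102 and 75.9 CPM, 1.34-fold (1.19 to 1.52). Acaca, which makes malonyl-CoA, was 107 and 98.3 CPM, and Fasn, the synthase, 50.3 and 43.7 CPM, both with intervals that include 1. Acly, Fads1 and Fads2 had ratios of 0.989, 1.04 and 0.970, and their intervals included 1 as well.

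Depth per stromal barcode differed between libraries, so the comparison was repeated over a narrower range of depth. Among barcodes of 2000 to 8000 UMIs, 1151 in the control and 927 in the library labelled knockout, 23 of 33 members had ratios above 1 and the median log2 ratio was 0.27, but 0 members passed 2-fold. Over all genes tested in that range the median log2 ratio was -0.004. The shares of all genes above 1 or past 2-fold in that range are not given. Pmvk was then 1.92-fold higher (1.62 to 2.27), Fdps 1.75-fold (1.59 to 1.94) and Lss 1.84-fold (1.31 to 2.56). Depth was not matched within this range, since 152 control barcodes held 2000 to 4000 UMIs and 997 held 4000 to 8000, against 541 and 386 in the library labelled knockout. The 18 sterol enzymes summed to 497 CPM in control stromal barcodes of 2000 to 4000 UMIs and 908 CPM in those labelled knockout. At 4000 to 8000 UMIs they summed to 638 CPM (618 to 657) and 859 CPM (818 to 901). The sterol sum was thus higher in both narrower ranges, whereas the 8 fatty acid genes were 818 and 631 CPM at the lower depth and 620 and 653 CPM at the higher. Epithelial markers in stromal barcodes summed to 7.59 CPM (control) against 35.5 CPM (library labelled knockout), against 5320 and 6319 CPM in epithelial barcodes. Smooth muscle markers in stromal barcodes summed to 525 and 796 CPM, 4 of 4 markers detected in each library, and their part in the result was not tested.

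**Figure D2:**
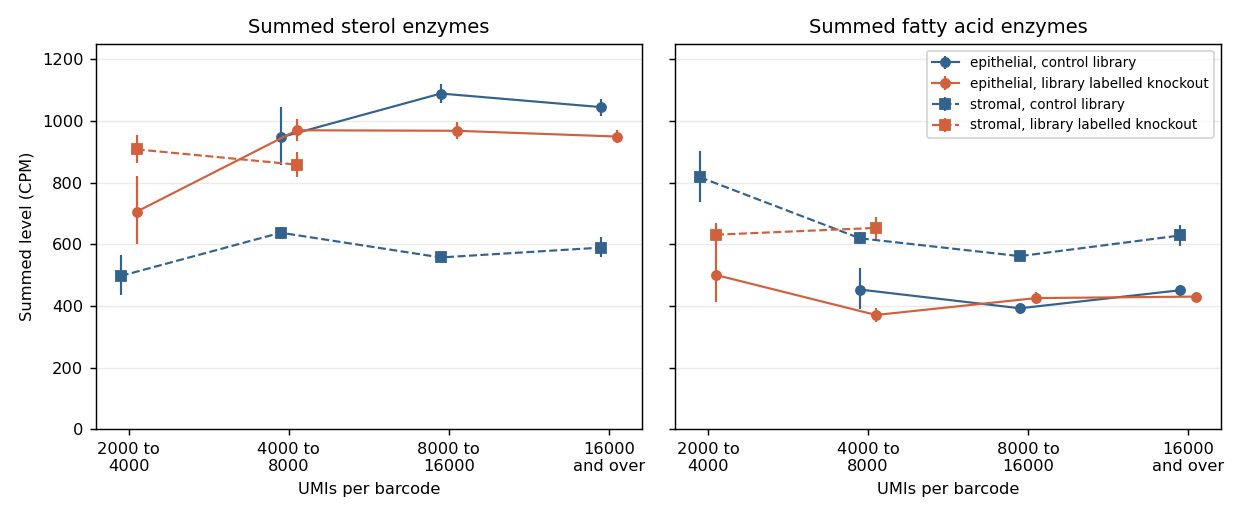
Summed level in CPM of the 18 sterol enzymes (left) and 8 fatty acid enzymes (right) against depth per barcode, for epithelial (circles) and stromal (squares) barcodes of both libraries; bars are exact 95% Poisson intervals and groups under 20 barcodes are not drawn. Stromal sterol enzymes of the library labelled knockout lie at 908 and 859 CPM, those of the control between 497 and 638 CPM.

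In epithelium the members did not share a direction, and the largest differences were lower levels of Fads2, Pmvk and Fasn. One member, Fads1, did not pass the filter on low values there, with 11 and 8 UMIs. Of the 32 that passed, 0 were at least 2-fold higher (4.6% of the 12830 genes tested) and 3 were at least 2-fold lower (14.7% of all genes). Ratios above 1 were found for 16 members and for 35.5% of all genes. The median log2 ratio was -0.01 over the members and -0.18 over all genes, and members stood at 0.17 once that shift was removed. Intervals lay above 1 for 12 members (18.9% of all genes) and below 1 for 10 (41.9% of all genes). The members thus did not stand above the background on the lower side. On the upper side, their shares with a ratio or an interval above 1 were larger than those of all genes, but 0 members were at least 2-fold higher.

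Pmvk was 188 CPM in control epithelium and 74.0 CPM in that of the library labelled knockout, 2.54-fold lower (2.37 to 2.73). After thinning it was found in 27.6% and 11.3% of epithelial barcodes. Fdps was also lower, at 186 and 131 CPM, 1.42-fold (1.33 to 1.51). Both were higher in stroma, so their stromal and epithelial ratios lie on opposite sides of 1. The other early enzymes were split, with Hmgcs1 at 73.5 and 102 CPM, a ratio of 1.39 (1.28 to 1.51), and Mvd, which decarboxylates mevalonate pyrophosphate, at 23.0 and 33.4 CPM, a ratio of 1.45 (1.25 to 1.70). Acat2 was 1.27-fold lower (1.11 to 1.46), and Idi1, Fdft1 and Mvk had intervals that include 1.

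Between squalene and cholesterol all 10 genes lay within 2-fold in epithelium. Msmo1 was 103 and 120 CPM, a ratio of 1.16 (1.08 to 1.25), and Sqle 36.7 and 51.1 CPM, a ratio of 1.39 (1.23 to 1.57). Sc5d and Cyp51 had ratios of 1.29 and 1.15. On the other side were Lss at 20.7 and 16.3 CPM, 1.27-fold lower (1.06 to 1.52), and Dhcr7 at 40.1 and 29.2 CPM, 1.37-fold lower (1.2 to 1.56). The summed level of the 10 was 409 and 441 CPM, a ratio of 1.08 (1.04 to 1.12). The 8 genes up to squalene summed to 652 and 513 CPM, 1.27-fold lower (1.23 to 1.31). Pmvk (188 and 74.0 CPM) and Fdps (186 and 131 CPM) were the largest parts of that control sum. Of the 8, 3 had ratios above 1 and 5 below, so the lower sum does not describe each early gene.

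Insig1, whose own transcription SREBP drives, was 34.7 and 56.4 CPM in epithelium, a ratio of 1.63 (1.44 to 1.84). Srebf1 was 9.70 and 14.2 CPM, a ratio of 1.47 (1.16 to 1.86). Srebf2 and Scap were level, at 58.4 and 57.1 CPM and at 14.9 and 15 CPM. Npc1 was 34.8 and 20.2 CPM, 1.72-fold lower (1.49 to 2.0), and Abca1 8.57 and 5.51 CPM, 1.56-fold lower (1.15 to 2.09), both opposite to their side in stroma.

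Fatty acid genes went both ways in epithelium, with 4 ratios above 1 and 3 below among the 7 that passed the filter. Below 1 were Fads2 and the enzymes that build palmitate, with Fasn at 126 and 50.8 CPM, 2.48-fold lower (2.27 to 2.70), and Acaca at 91.4 and 51.0 CPM, 1.79-fold lower (1.63 to 1.97). Acly, which supplies their acetyl-CoA from citrate, was higher, at 50.3 and 70.1 CPM, a ratio of 1.39 (1.26 to 1.55). Also higher were the desaturase Scd2, at 119 and 203 CPM, a ratio of 1.70 (1.59 to 1.81), and Elovl6, at 28.8 and 38.1 CPM, a ratio of 1.32 (1.15 to 1.52). Scd1 was just inside the 2-fold limit at a ratio of 1.95 (1.28 to 3.08) on 29 and 93 UMIs, and its near relative Scd3, with 18 and 83 UMIs there, could share reads with it. After thinning Fasn was found in 21.3% and 10.5% of epithelial barcodes and Scd2 in 20.5% and 30.1%.

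**Figure D3:**
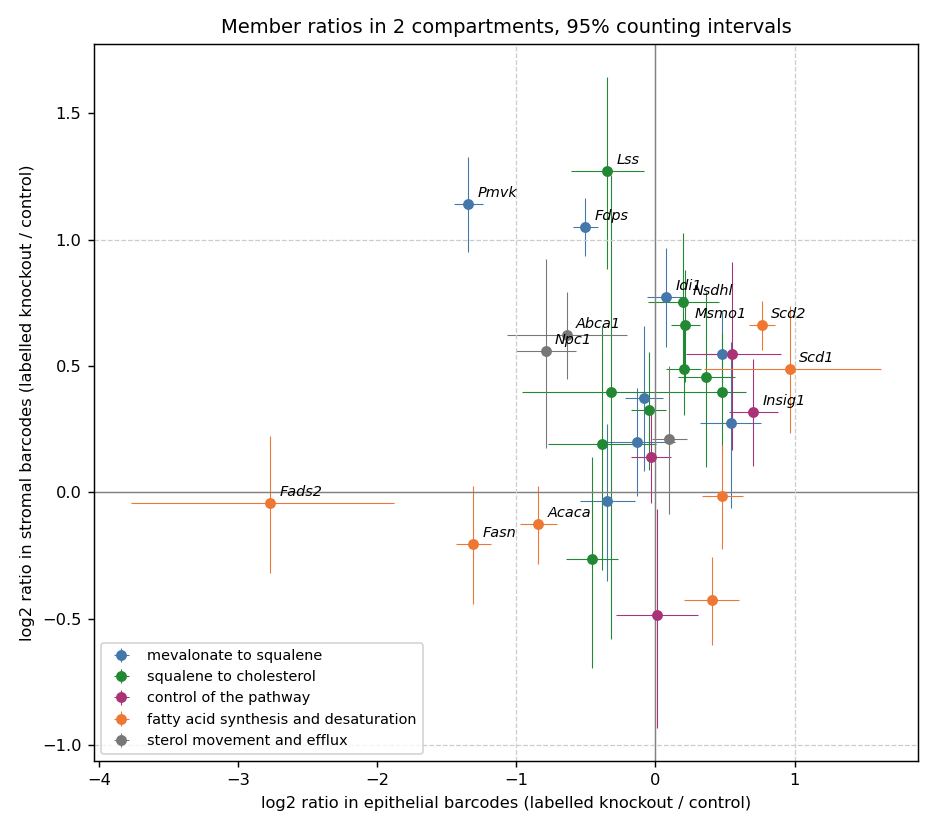
Log2 ratio (library labelled knockout over control) of 32 members in epithelial (x axis) and stromal (y axis) barcodes, with exact 95% counting intervals; colours mark steps of the pathway, dashed lines mark 2-fold, and Fads1 is left out because it did not pass the epithelial filter. Pmvk, Fdps, Lss, Npc1 and Abca1 lie at the upper left, and Fasn, Acaca and Fads2 lie left of the centre line.

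Fads2, the delta-6 desaturase of polyunsaturated fatty acids, was 5.09 and 0.746 CPM in epithelium, 6.82-fold lower (3.67 to 13.6) on 54 and 13 UMIs. In the control all of its UMIs came from barcodes high in gland genes. These were epithelial barcodes with Foxa2, Prss28, Prss29 and Cxcl15 summing to at least 20 per 10000 UMIs, a range of a score and not a cell type. They numbered 92 of 722 (control) and 54 of 1419 (library labelled knockout). They held 54 of the 54 control Fads2 UMIs and 8 of the 13 others. Within them Fads2 was 46.2 and 19.2 CPM, 2.40-fold lower (1.14 to 5.84). The remaining epithelial barcodes had 0 and 5 UMIs of Fads2. Foxa2, the gland transcription factor, was 71.0 and 43.3 CPM in the gland-gene-high barcodes and 1.69 and 7.53 CPM in the rest. In the control 83 Foxa2 UMIs lay in gland-gene-high barcodes and 16 in the rest. The library labelled knockout had 18 and 128, so there the score missed most Foxa2 UMIs. The 4 gland genes summed to 1957 (control) and 217 CPM over all epithelial barcodes. Whether the gland-gene-high barcodes of the 2 libraries are alike was not tested.

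Fasn and Pmvk also had other values in gland-gene-high barcodes than in the rest. Median depth in the gland-gene-high barcodes was 11103 and 5089 UMIs, and its part in these values was not tested. Fasn was 52.2 and 98.6 CPM in them, a ratio of 1.89 (1.24 to 2.85), while in the rest it was 135 and 49.7 CPM, 2.72-fold lower (2.49 to 2.97). Pmvk was 47.9 and 38.5 CPM in them, with an interval that includes 1 (0.430 to 1.42), and 205 and 74.8 CPM in the rest, 2.74-fold lower (2.55 to 2.94). Scd1 in the rest was 2.43 and 5.47 CPM, a ratio of 2.25 (1.41 to 3.72). Of 15 members that passed the filter in gland-gene-high barcodes, 3 were at least 2-fold lower (3.44% of the 5837 genes tested), namely Fads2, Stard4 and Acat2, and 0 higher (3.72%). Stard4 was 69.3 and 31.3 CPM there, and Acat2 48.8 and 24.1 CPM. Fads2 had 54 and 8 UMIs there and reached the filter through its control level. The count of lower members thus partly follows from the filter. Members that did not pass it lay on both sides, such as Abca1 (2 and 7 UMIs there) and Sqle (24 and 3 UMIs). The median log2 ratio of members there was -0.25 and turned to 0.06 with a score of at least 50 (74 and 31 barcodes). The difference between the 2 kinds of epithelial barcode was not tested.

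Within a library, the compartments differed in which members they held. In the control, 9 members were at least 2-fold higher in epithelium than in stroma (21.8% of the 14129 genes tested) and 6 at least 2-fold higher in stroma (23.1%). Those of epithelium were led by Pmvk, 5.37-fold (4.98 to 5.80), Msmo1, 3.14-fold (2.88 to 3.43), and Stard4, 3.01-fold (2.72 to 3.33). Those of stroma were led by desaturases, with Fads1, the delta-5 desaturase, at 33.4 CPM in stroma and 1.04 CPM in epithelium, 32.3-fold (17.9 to 64.8), and Scd1 10.4-fold (7.19 to 15.6). Fads2 was 6.64-fold and Abca1 6.37-fold higher in stroma, and Elovl6 3.54-fold. Mvk, the mevalonate kinase, was 2.62-fold higher in stroma (2.25 to 3.07), the one sterol enzyme on that side.

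The library labelled knockout had 4 members at least 2-fold higher in epithelium (18.5% of the 11609 genes tested) and 5 in stroma (24.7%), and the difference between libraries was not tested. Stard4, Msmo1, Dhcr7 and Fdft1 were on the epithelial side, at 2.79-fold, 2.30-fold, 2.09-fold and 2.05-fold. Pmvk was level there, at 74.0 CPM in epithelium and 77.2 CPM in stroma, a ratio of 0.958 (0.845 to 1.09). Fdps was higher in stroma, 197 against 131 CPM, where the control had 94.8 against 186 CPM. Fads1, Fads2, Abca1, Scd1 and Mvk were higher in stroma again, by 75.8-fold, 43.9-fold, 15.3-fold, 7.47-fold and 3.30-fold. After thinning, Fads1 was found in 0.282% and 0.0731% of epithelial barcodes and in 6.60% and 7.45% of stromal ones.

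Sterol UMIs were found in most epithelial and stromal barcodes of both libraries. At 2000 UMIs per barcode, control epithelial barcodes had a mean of 2.14 ± 1.92 sterol enzyme UMIs (SD over 709 barcodes, which are not replicates) and those labelled knockout 1.88 ± 1.71 (1368 barcodes). Stromal means were 1.19 ± 1.58 (3195 barcodes) and 1.80 ± 2.13 (940 barcodes). Barcodes with 0 sterol UMIs were 41.4% of control stroma and 29.9% of stroma labelled knockout, but 18.5% and 20.5% of epithelium. Left out as too shallow were 26 and 109 stromal and 13 and 51 epithelial barcodes. Fatty acid enzymes gave stromal means of 1.19 and 1.26 UMIs and epithelial means of 0.850 and 0.828.

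**Figure D4:**
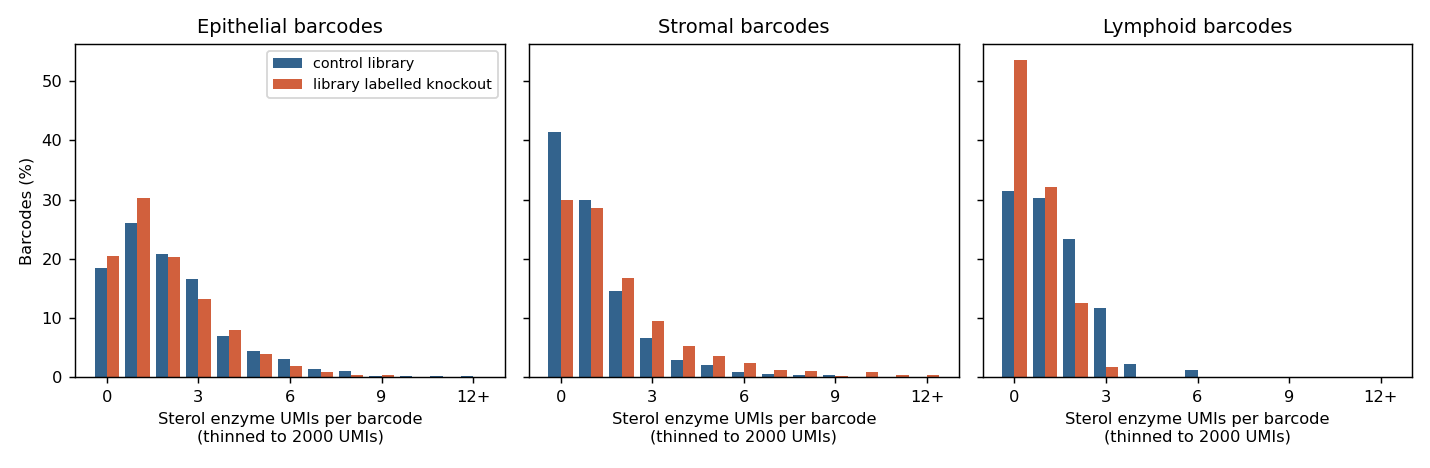
Share of barcodes (percent) with each number of UMIs of the 18 sterol enzymes after thinning every barcode to 2000 UMIs, for epithelial, stromal and lymphoid barcodes of both libraries; the last bar holds 12 or more. In stroma 41.4% of control barcodes and 29.9% of those labelled knockout hold 0, and in lymphoid barcodes 31.4% and 53.6%.

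In lymphoid barcodes the early sterol genes were lower in sum. The 8 genes up to squalene summed to 401 CPM (control) against 105 CPM (library labelled knockout), 3.82-fold lower (2.54 to 5.97), on 240 and 26 UMIs. Fdps had 81 UMIs over 43 of 90 control barcodes and 1 UMI in 124 barcodes of the other library, a ratio of 0.0298 (0.000746 to 0.171). Thinned, it was found in 19 of 86 control barcodes and 1 of 56 others. In the same library Fdps was 131 CPM in epithelium and 197 CPM in stroma, so the low count was not seen in its other compartments. Pmvk was 73.5 and 24.2 CPM, 3.03-fold lower (1.29 to 8.71), and Cyp51 115 and 56.5 CPM, 2.04-fold lower (1.14 to 3.92). Acly and Hmgcs1 were the other 2 of 5 members at least 2-fold lower among 12 that passed the filter (4.37% of the 4121 genes tested), and 0 were higher (4.56%). Fdps, Pmvk, Hmgcs1 and Acly had 1, 6, 6 and 9 UMIs in the library labelled knockout. They reached the filter of 10 UMIs through their control level, so the count of lower members partly follows from the filter. The interval of Hmgcs1 included 1 (ratio 0.427, 0.146 to 1.03, on 34 and 6 UMIs), so 4 of the 12 had intervals below 1 (10.4% of all genes). Stard4, the most abundant member there in the library labelled knockout, was 127 and 105 CPM, with an interval that includes 1. Idi1, which did not pass the filter, had 32 and 2 UMIs. Median depth was 6051 and 1753 UMIs per lymphoid barcode. Among barcodes of 2000 to 8000 UMIs Fdps was 137 and 6.17 CPM on 41 and 1 UMIs, and 1 of 6 measured members was at least 2-fold lower. The share of all genes at least 2-fold lower in that range is not given. Which lymphoid subsets each library holds was not tested.

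The barcodes outside the 3 classes held macrophage, endothelial, smooth muscle and plasma cell markers together. Of 26 members that passed the filter, 3 were at least 2-fold higher there (5.27% of the 7853 genes tested), Fdps, Cyp51 and Msmo1, and 0 lower (3.93%). Fdps was 44.3 and 109 CPM, a ratio of 2.47 (1.77 to 3.46). The make-up of these barcodes differed, with 84 and 138 barcodes holding none or several of the marker sets. Those held 38 and 63 of the Fdps UMIs, at 76.8 and 206 CPM, while barcodes with smooth muscle markers were at 93.6 and 57.1 CPM on 10 and 7 UMIs. The part of the make-up in the ratio was not tested. When doublets were kept only Fdps was past 2-fold. Ratios above 1 were found for 19 of the 26 (53% of all genes) and below 1 for 7 (47%). Abca1 was the highest member, at 201 and 265 CPM, and it was concentrated in barcodes with endothelial markers (Pecam1, Cdh5, Kdr and Emcn at 10 or more per 10000 UMIs, and no other set). These were 56 and 44 barcodes, with Abca1 at 527 CPM (463 to 597) and 840 CPM (685 to 1020). Barcodes with macrophage markers, 51 and 25, had Abca1 at 187 CPM (140 to 245) and 670 CPM (481 to 909). Those with smooth muscle markers, 23 and 52, had 0 and 10 Abca1 UMIs. The limit of 10 for these sets was chosen after the data had been seen.

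Neighbouring lipid pathways were read from 5 lists of 59 genes, of which 58 are in the feature tables. In stroma only 1 of their measured genes passed 2-fold, Cpt2, which admits long-chain acyl groups to the mitochondrial matrix, at 10.4 and 4.82 CPM, 2.15-fold lower (1.35 to 3.62). Their stromal medians of log2 ratios were 0.38 for sterol regulators and other sterol steps, 0.06 for sterol uptake and transport, 0.10 for fatty acid synthesis and elongation, -0.07 for fatty acid oxidation and 0.18 for triglycerides and droplets. In epithelium more genes lay past 2-fold, mostly lower. Of 11 measured genes of sterol uptake and transport, 3 were lower and 1 higher, at a median of -0.27. Soat1, which esterifies cholesterol, was 58.9 and 7.0 CPM, 8.42-fold lower (6.92 to 10.3), and Lipa, the lysosomal lipase, 13.2 and 2.24 CPM, 5.89-fold lower (4.10 to 8.63). Lrp8, a lipoprotein receptor, was 1.32 and 6.89 CPM, 5.22-fold higher (3.0 to 9.84). The remaining one, Nr1h3, a liver X receptor, had 16 and 13 UMIs.

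Of the 14 genes of fatty acid synthesis and elongation, 8 had ratios below 1 in epithelium and 6 above, and 3 were at least 2-fold lower. Acacb, the mitochondrial relative of Acaca, was 16.4 and 5.45 CPM, 3.01-fold lower (2.33 to 3.90). Acss2, which makes acetyl-CoA from acetate, was 2.24-fold lower (1.80 to 2.79), and Slc25a1, which exports citrate from mitochondria, 208 and 104 CPM, 2.01-fold lower (1.89 to 2.14). None of the list was at least 2-fold higher. Of 10 triglyceride and droplet genes, 3 were lower and 1 higher. Dgat2, which completes triglycerides, was 126 and 42.4 CPM, 2.98-fold lower (2.72 to 3.26), Lipe, the hormone-sensitive lipase, 2.84-fold lower (2.25 to 3.6), and Plin2, a droplet coat protein, 2.04-fold lower (1.91 to 2.17). Agpat2, an acyltransferase of the same route, was 98.7 and 203 CPM, 2.06-fold higher (1.92 to 2.20). Cyb5r3, which feeds electrons to desaturases and sterol oxidases, was 921 and 317 CPM, 2.90-fold lower (2.81 to 3.0), the only one of 10 measured sterol regulators and other steps past 2-fold. Cpt2 was 2.48-fold lower (2.0 to 3.08), the only one of 10 fatty acid oxidation genes. As given above, 14.7% of all genes lay at least 2-fold lower in epithelium.

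Promoter sequences of RefSeq (build GRCm38.p6, 250 bases before to 50 after a start) were available for 25 of the 33 members, 31 promoters in all. SREBP is known to act through sterol regulatory elements, often beside a CCAAT box bound by NF-Y. The element TCACNCCAC, searched on both strands, was found in 1 of the 25 members, Hmgcs1, and in 1.31% of 10648 genes tested in epithelium or stroma. The shorter form CACNCCAC, chosen after the first search and contained in the longer one, was found in Hmgcs1, Acat2 and Insig1, against 7.45% of tested genes. The CCAAT box on either strand was found in 19 of 25 members (76.0%), against 42.6% of tested genes and 41.1% of all 27025 genes with a promoter. By promoter these shares were 64.5%, 37.1% and 37.4%. Shown are the Hmgcs1 element, and the CCAAT boxes of the 3 members past 2-fold that have a promoter with one upstream of the start. Capitals mark the motif, printed as ATTGG where it lies on the other strand, and each sequence runs 5' to 3' on the strand of its gene.
Hmgcs1, chr13:119690189-119690247, plus strand, 162 to 104 bases before the start: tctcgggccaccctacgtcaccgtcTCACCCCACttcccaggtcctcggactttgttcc
Pmvk, chr3:89454390-89454424, plus strand, 151 to 117 bases before the start: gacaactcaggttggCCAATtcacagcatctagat
Lss, chr10:76531528-76531562, plus strand, 77 to 43 bases before the start: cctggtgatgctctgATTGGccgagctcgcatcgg
Fasn, chr11:120824587-120824652, minus strand, 105 to 40 bases before the start: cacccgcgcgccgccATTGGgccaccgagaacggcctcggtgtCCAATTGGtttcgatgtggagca
The Fasn stretch holds 3 boxes, and the last pair overlap on opposite strands. Pmvk and Lss were higher in stroma and lower in epithelium, and Fasn was lower in epithelium. These 3 are shown because they hold a box, so nothing is read from them about boxes and direction. Fads2, the other member past 2-fold with a promoter, had no box in it. A match describes letters in this window only.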

How the data were processed

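The deposited matrices hold UMI counts per gene and barcode, which per the file headers came from Cell Ranger 7.0.1. Per the submitters' processing notes, Seurat was used and the build was mm39. The classes rest on marker genes, not on an annotation of the authors. A barcode needed 500 genes or more and no more than 15% mitochondrial UMIs. Scrublet (scanpy 1.11.5) ranked likely doublets in each library, and the top 159 and 70 barcodes, 0.8% for every 1000, were taken out, leaving 4303 and 2881. For each class of a library, UMIs were added up and expressed as CPM. Ratios carry exact conditional, single sums exact Poisson and shares exact binomial 95% intervals. A gene was tested where the mean CPM of both libraries was worth at least 10 UMIs in the smaller library. A library at 0 was set to a floor of 3 counts in medians and counts over genes. Cells are not replicates, so no p-value was computed. The calculation was tested on simulated Poisson counts, which lack the extra spread between barcodes, so this checks the arithmetic only.

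The members and lists were chosen with earlier results of these data known. Values were given for members past 2-fold in epithelium or stroma, for the 5 with the highest mean level in each, and for others by ranges or where a role called for it. From each neighbouring list at most 3 genes past 2-fold in each direction were named. Alternatives were other barcode filters, class limits, scalings, gene filters, thinning and a depth window. No annotation of mm39 was used, so coordinates are those of the RefSeq promoter table. In GENCODE's GRCm38 annotation Fdps and Tm7sf2 overlap another protein-coding gene on the same strand. Mvd, Fdft1, Cyp51, Srebf1, Acaca and Npc1 overlap one on the other strand, and Acat2 has the near copy Acat3 (47 and 3 UMIs in epithelium). Their values are uncertain to that extent, since the sources used here do not give the strand setting of the counting.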

Additional observations from a re-analysis of the deposited data

Results flagged for a closer look

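There were 5 members with ratios on opposite sides of 1 in epithelial and stromal barcodes, counting intervals away from 1 and ratios at least 2-fold apart. The share of all genes that meet these conditions is not given, so the count is not read as particular to the members. The difference between compartments was not tested, since each rests on the same 2 libraries. Pmvk had a ratio of 0.394 in epithelium and 2.21 in stroma. Fdps had 0.705 and 2.07, and Lss 0.787 and 2.41. Abca1 had 0.643 and 1.54, and Npc1 0.580 and 1.47. Elovl6 went the opposite way, 1.32 in epithelium and 0.744 in stroma, but by less than 2-fold between them.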

How the results depend on the processing

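No paired analysis was possible because each group has 1 library. The median log2 ratio of stromal members stayed above 0 in all 12 alternatives, from 0.26 by means over barcodes to 0.43 with class limits 2 times as high. Pmvk, Fasn and Fads2 in epithelium and Pmvk, Fdps and Lss in stroma stayed on their side of 1 in each alternative run. Abca1 in epithelium stayed below 1 in 9 of the 10 alternatives run for single members, and lay above 1 in the depth window. In the depth window of 2000 to 8000 UMIs, chosen after seeing the data, the epithelial median was 0.23, and 1 epithelial member, Sqle, was at least 2-fold higher (9 and 156 UMIs). With scaling by the median of ratios, and with totals that leave out the 50 top genes, it was 1 other, Scd1, which had 0 and 16 UMIs in the window. In that window 0 stromal members were at least 2-fold higher and 1 lymphoid member at least 2-fold lower. Thinned to 2000 UMIs, members at least 2-fold lower numbered 5 in epithelium, 1 in stroma, 0 in lymphoid and 1 in other barcodes. Lymphoid members at least 2-fold lower numbered 3 and 2 with class limits 0.5 and 2 times as high, 8 with genes of at least 20 UMIs and 0 with genes of at least 100 UMIs. In other barcodes 1 member was at least 2-fold higher with all deposited barcodes, without doublet removal, with either change of class limits, and thinned. Shares of all genes past 2-fold are not given for these alternatives. Their counts therefore cannot be set against a background. Fewer genes pass at 100 UMIs and after thinning. The 8 lymphoid members with genes of at least 20 UMIs include Idi1 (32 and 2 UMIs), Sc5d (28 and 4) and Acaca (28 and 4). These did not pass the main filter and entered through their control level. The cause of the other differences was not tested. Depth limits the lymphoid values most, at 247586 UMIs in the library labelled knockout.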
